A study of Macaca mulatta with 38 samples.

Results

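The B cells of 1 rhesus macaque were followed from day 32 to day 553 by counting genetic barcodes in 8 libraries, of 38 libraries in the series. The libraries were chosen by their labels, which name the cell type B and the day. The late group holds the 4 libraries of days 365, 393, 494 and 553, and the early group holds the 3 libraries of days 32, 119 and 187. The library of day 266 is the midpoint and belongs to neither group. Both groups and the midpoint come from peripheral blood of the same animal, the male ZL34 of 4 years. Its CD34+ cells, collected after G-CSF and AMD1300, were transduced with a barcoded lentivirus library (MOI = 25) and given back after TBI. ZL34 was also dosed with cidofovir every week, at 5 mg/kg. Values listed in order of day follow the days as named here. There is 1 library a day from 1 animal, so no biological replicates exist, and each SD and n below is over days.

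B cells arise in the marrow from blood stem cells by way of lymphoid progenitors, and leave it as naive cells. Once in the periphery they may persist for long periods as memory cells and divide there. A barcode written into a stem or progenitor cell by the vector is copied at each division, so the barcodes found in blood B cells list the ancestors that gave rise to B cells. A cell that took up several vectors carries several barcodes. Only barcodes in genomic DNA were measured, so no surface marker or transcript was at hand to check the B label.

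A barcode counts as listed where its read count is above 0. No count from 1 to 100 occurs in the table, so a listed 0 was taken as 100 reads or fewer. That is 0.0127% of the day 494 library, which had 789584 reads, and 0.00297% to 0.00508% of the other 7, which had 1968705 to 3365960. Levels are percent of the summed reads of a library. The 6 barcodes with the highest mean level in the 5 libraries of nRBC are called the leading group here. They held 98.1% of nRBC reads on average, and no B value entered their choice. None of those nRBC libraries was of an early day, so the choice favours barcodes that were large from the midpoint on.

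The barcodes on which the results turn are printed as deposited, without the adapter bases that follow them. The fixed opening is in lower case and the variable part in capitals. Barcodes are numbered by mean level over the 38 libraries.
The leading group, with and without which the day 553 values differ most:
bc1: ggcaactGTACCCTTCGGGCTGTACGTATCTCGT
bc2: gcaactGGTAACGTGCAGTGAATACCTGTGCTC
bc3: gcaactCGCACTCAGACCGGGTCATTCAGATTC
bc4: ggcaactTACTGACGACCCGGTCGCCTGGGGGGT
bc5: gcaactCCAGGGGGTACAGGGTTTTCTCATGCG
bc6: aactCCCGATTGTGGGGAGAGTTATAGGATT
The largest barcodes of days 32, 119 and 187 in turn:
bc3787: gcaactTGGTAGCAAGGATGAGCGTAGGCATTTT
bc14: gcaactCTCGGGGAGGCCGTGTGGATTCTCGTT
bc8: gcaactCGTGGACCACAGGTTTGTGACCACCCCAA
A pair of barcodes chosen for being listed on all 8 days:
bc62: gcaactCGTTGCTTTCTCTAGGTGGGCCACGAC
bc85: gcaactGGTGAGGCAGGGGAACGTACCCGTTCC

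After day 32, the newly listed part of the B barcode pool was largest by reads at day 119. From day 365 on, the pool consisted mainly of barcodes already seen. In all, 36063 barcodes were listed in at least 1 B library, of which 15815 were listed at day 32. In order of day, 5595 and 6545 barcodes were first listed at the next 2 early days, 2630 at the midpoint, and 1570, 2501, 75 and 1332 in the late libraries. By reads, barcodes new on the day made up 65.4% of the day 119 library, 36.9% of day 187 and 19.0% of the midpoint. In the late libraries they made up 9.87%, 11.7%, 1.45% and 6.45%. Every late library thus had a smaller newly listed share than day 119, day 187 and the midpoint had. Later libraries have more earlier ones to match, and no test was made. The limit of a listed 0 at day 119, 0.00508%, was above the median day 32 level of 0.00490%. Many day 32 barcodes could thus be at a listed 0 at day 119 without a change in level. Likewise, barcodes new at day 119 could have been present at day 32 below its limit of 0.00392%.

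**Figure D1:**
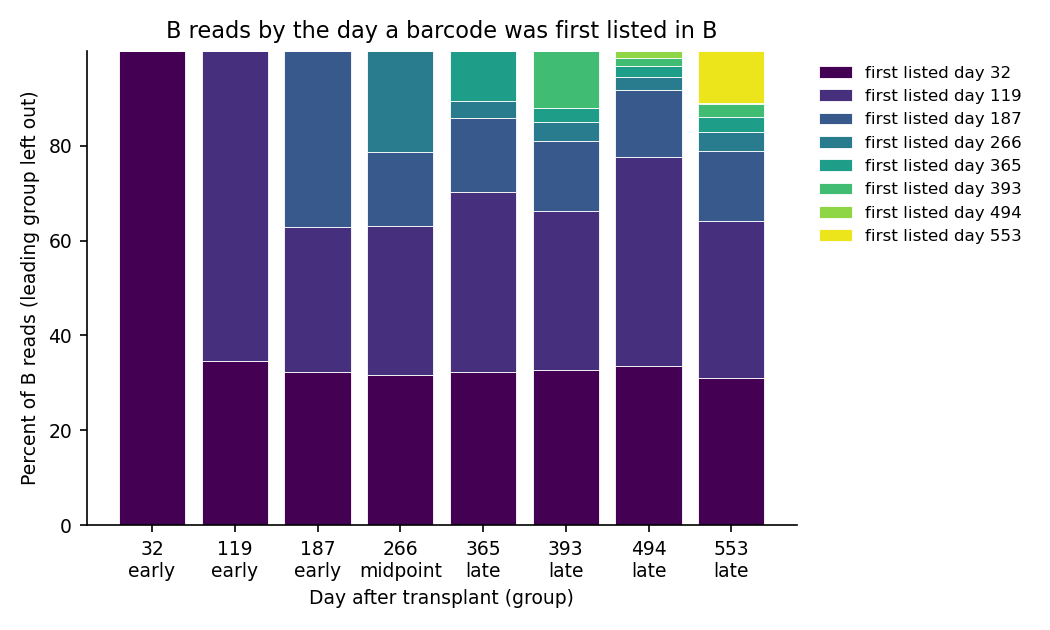
Percent of B reads (vertical axis, leading group left out) in each library (horizontal axis, days evenly spaced), split by the day on which a barcode was first listed in B. The lowest block, barcodes of day 32, keeps a height of 31.1% to 34.6% in every later library, while the top block, barcodes new on that day, is 65.4% at day 119 and at most 12.1% in the late libraries.

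The late pool kept the layers laid down early. With the leading group left out, barcodes first listed at day 119 held 37.8%, 33.5%, 44.0% and 33.0% of reads in the late libraries in order of day. Those first listed at day 187 held 15.6%, 14.9%, 14.3% and 14.7%, and those of the midpoint 3.58%, 3.97%, 2.66% and 4.01%. The layer of day 119 was thus larger than that of day 187 or the midpoint in each late library. A layer leaves out barcodes listed on an earlier day, so this order depends on the rule. When all barcodes listed on a day were counted, those of day 187 held 71.8%, 64.9%, 81.0% and 63.0% of late reads. Those of day 119 held less, at 58.4%, 52.3%, 68.8% and 51.0%. Of the barcodes new at day 119, 76.0% were listed again later. For those new at day 187 it was 49.5%, for the midpoint 38.4%, and for days 365, 393 and 494 it was 37.7%, 12.6% and 29.3%. Fewer libraries follow a later day, and the depth of those libraries differs, so these percentages are not matched for follow-up.

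Late libraries mostly held more of one another's barcodes than early libraries did, but the ranges overlap. With the leading group left out, the later library of a pair had 46.9% to 88.8% of its reads in barcodes of the earlier one over the 6 late pairs, with a median of 64.1%. Over the 3 early pairs it had 32.2% to 47.7%, with a median of 34.6%, and the highest was that of days 119 and 187. The other early pairs had day 32 as the earlier library. Barcodes of day 119 or 187 held 51.0% to 81.0% of the reads of a late library over 8 pairs. Their median of 63.9% was near that of the late pairs. The lowest late value had day 494 as the earlier library, which had the fewest reads and the highest limit of a listed 0. Pearson's r of square-root shares over barcodes, the leading group left out, was 0.48 to 0.60 within the late group and 0.38 between days 119 and 187. Between day 32 and each later library it was −0.04 to 0.00. These r values share depth and many joint zeros, and barcodes are not independent replicates, so none was tested.

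**Figure D2:**
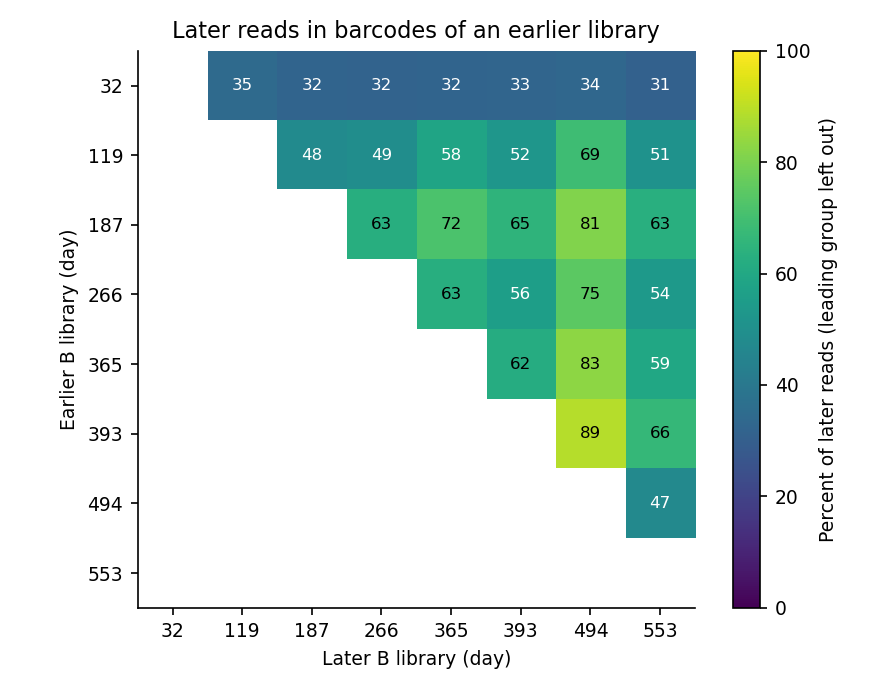
Percent of the reads of a later B library (columns, by day) that lie in barcodes listed in an earlier B library (rows, by day), with the leading group left out. The row of day 32 stays between 31.1% and 34.6%, whereas the row of day 187 lies between 62.8% and 81.0%.

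Day 32 barcodes divided almost evenly into those seen again in B and those not. Of 15815 barcodes listed in B at day 32, 7996 (50.6%) were listed in at least 1 later B library, and 7819 (49.4%) in none. 5337 (33.7%) were listed in at least 1 late library. 2181 (13.8%) were listed late although they were at 0 at both day 119 and day 187. 2160 (13.7%) were listed at day 119 or 187 and in no late library. 594 barcodes (3.76%) were listed in all 4 late libraries, and 357 (2.26%) in all 7 later libraries. Of the 7819 that did not return in B, 1252 were listed in T after day 32 and 196 in Gr or Mono after day 32. The number of barcodes listed differed between these cell types and between days, so the counts do not compare T with Gr or Mono. No matching count was made for the 7996 that did return.

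In any 1 later library only a minority of the day 32 barcodes was listed. The share listed was 17.4% at day 119 (2754 barcodes), 26.0% at day 187 (4116) and 17.4% at the midpoint (2756). In the late libraries, in order of day, it was 16.4%, 22.4%, 6.94% and 15.2% (2593, 3544, 1097 and 2397 barcodes). The lowest value was that of day 494, where the limit of a listed 0 was highest. Day 32 barcodes lay close to the limit themselves, with a median level of 0.00490% against a limit of 0.00392%. The limit of day 119, 0.00508%, was above that median. A barcode that was not listed again could have been present below the limit.

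The read share of the day 32 barcodes changed little over the later libraries. Days 119 and 187 had 34.6% and 32.3% of reads in them, and the midpoint 33.6%. The late libraries had 33.6%, 33.3%, 34.5% and 38.6%. Without the leading group the values were 34.6% and 32.2% early, 31.7% at the midpoint, and 32.4%, 32.7%, 33.6% and 31.1% late. The leading group has 3 members that were listed at day 32 (bc2, bc4 and bc6), and without the group day 553 is the lowest value and no longer the highest. Day 32 barcodes also made up 37.9%, 36.7% and 34.2% of the barcodes with at least 0.02% of reads at day 119, day 187 and the midpoint. In the late libraries they made up 33.2%, 34.4%, 32.5% and 31.9% of such barcodes. Of all 36063 B barcodes, 15815 were listed at day 32. By count, day 32 barcodes made up 30.2% to 33.3% of the barcodes listed in each later library. Without the leading group, their read share was thus near their share by count.

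**Figure D3:**
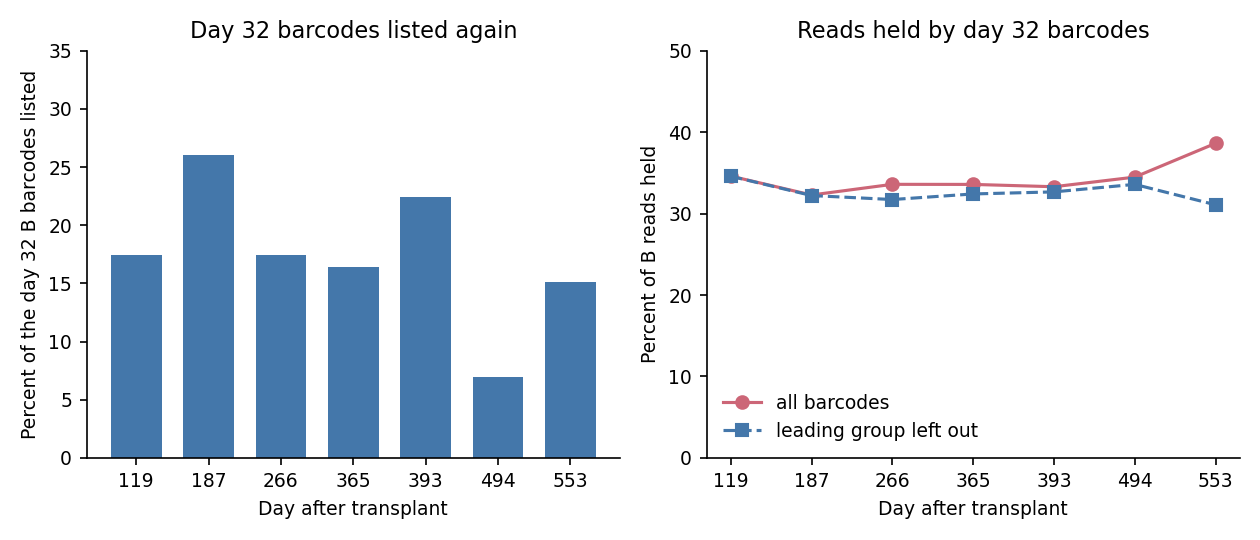
Left, percent of the 15815 day 32 B barcodes that were listed in each later B library. Right, percent of the reads of that library held by day 32 barcodes, with all barcodes (circles) and with the leading group left out (squares). The left bars run from 6.94% to 26.0%, while the squares stay between 31.1% and 34.6%.

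Persisting day 32 barcodes had median levels close to those of the barcodes that joined later. At day 365 their median level was 0.00770%, against 0.00719% for the other barcodes listed. At day 553 it was 0.00502% against 0.00499%, and at day 494 it was lower, at 0.0214% against 0.0220%. A higher level at day 32 went with more frequent return. Of the 3954 barcodes with the lowest levels at day 32 (0.00396% to 0.00439%), 29.9% were listed in a late library. Of the 3954 with the highest levels (0.00792% to 0.0771%), 41.7% were.

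Return in B was more frequent for barcodes that Gr and Mono had also listed at day 32. Of 1325 day 32 B barcodes listed in both Gr and Mono of that day, 859 (64.8%) were listed in a late B library. Of 3779 listed in 1 of them, 1800 (47.6%) were, and of 10711 listed in neither, 2678 (25.0%) were. The median level in B at day 32 was 0.00541%, 0.00502% and 0.00482% in these classes. The part of this difference in level was not tested. Only 174 of the barcodes were listed in T of day 32, and 54.6% of those were listed late in B.

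The 5 barcodes that were largest at day 32 differed in whether they were listed late. bc3787 led that library at 0.0771% and was listed at 0 in all 7 later B libraries. Setting each late 0 to 100 reads, its mean was at least 4.52-fold lower in the late libraries than in the early ones. bc3154 had 0.0299%, 0.0168% and 0.00430% in the early libraries, 0.0109% at the midpoint and a listed 0 in every late one, at least 2.99-fold lower. Both therefore left the listed pool, bc3787 by day 119 and bc3154 by day 365. All 5 were chosen for their level at day 32, so lower levels afterwards are partly set by the choice.

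bc2895 had 0.0365%, 0.00665% and 0.00446% in the early libraries, 0.0106% at the midpoint and 0%, 0.0106%, 0.0356% and 0.00440% late. bc5887 was listed early at day 32 alone, at 0.0320%, and late at 0.00436% (day 393) and 0.00472% (day 553). bc170 had 0.0347%, 0.0655% and 0.0488% early, 0.0175% at the midpoint and 0.0298%, 0.206%, 0.171% and 0% late, with overlapping groups.

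Apart from bc1, which was also among the 5 largest at day 187 and belongs to the leading group, the 5 largest barcodes of days 119 and 187 reached higher levels in T, Gr or Mono than in B, and most of their B share was gone by day 393. bc14 led at day 119. It had 0%, 0.542% and 0.0699% in the early libraries, 0.0343% at the midpoint and 0.0317%, 0.0139%, 0.0149% and 0% late. bc12, bc14, bc16 and bc17 together held 2.01% of B reads at day 119 and 0.0141% at day 553. Their highest levels were between 2.06% and 2.30% in Gr, 3.11% and 3.51% in Mono, and 1.32% and 1.73% in T. The largest barcodes of days 119 and 187 were chosen by their levels on those days, so lower late levels are partly set by the choice.

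bc7, bc8, bc9 and bc10 had their highest B levels at day 187. Their sum in B, in order of day, was 0.00800%, 1.13% and 1.95% early, 0.887% at the midpoint, and 0.771%, 0.0380%, 0.130% and 0.0246% late. From the midpoint on the sum was below that of days 119 and 187, and from day 393 on it was at most 0.130%. bc8 alone had 0%, 0.358% and 0.541% early, 0.202% at the midpoint and 0.185%, 0.00905%, 0.0379% and 0.0103% late. Its late mean was 0.0604% ± 0.0838 and its early mean 0.300% ± 0.275 (SD, n = 4 and 3 days), and the groups overlap. By edgeR its log2 difference was −2.31 ± 2.12 (SE) with an adjusted p of 0.927. bc8 reached 10.7% in Gr and 7.98% in Mono. Whether cells of those labels had a part in the B values was not tested.

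A set of 357 barcodes was listed in all 8 B libraries, and its share was larger in the late libraries than in the early ones. Without the leading group, these barcodes held 10.2%, 9.10%, 15.7% and 9.14% of reads in the late libraries in order of day. Early, in order of day, they held 2.42%, 7.23% and 6.32%, and 7.93% at the midpoint. The groups do not overlap. The set was chosen by being listed on every day, day 494 with its high limit included, so no test was made.

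bc62 and bc85 had higher levels in each late library than in any early one, as did 17.7% of the 1320 barcodes tested. bc62 had 0.209%, 0.233%, 0.365% and 0.0916% late and 0.00439%, 0.0209% and 0.0823% early, with 0.137% at the midpoint. Its late mean was 0.225% ± 0.112 and its early mean 0.0358% ± 0.0410 (SD, n = 4 and 3 days). By edgeR its log2 difference was 2.65 ± 1.48 (SE) with an adjusted p of 0.927. bc85 had 0.124%, 0.0974%, 0.184% and 0.105% late and 0.00514%, 0.0556% and 0.0495% early. Its log2 difference was 1.80 ± 1.29 (SE), also with an adjusted p of 0.927 by edgeR. Neither passed. Outside B, bc62 reached at most 0.198% in Gr, 0.135% in Mono and 0.0880% in T, below its highest B level.

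The other barcodes chosen from those listed on every day had overlapping groups. bc89 averaged 0.0820% ± 0.0461 in the late libraries and 0.0581% ± 0.0420 in the early ones. bc122, whose variable part has 18 bases, averaged 0.0988% ± 0.0583 late and 0.0344% ± 0.0325 early. bc17 averaged 0.0254% ± 0.0281 late and 0.189% ± 0.270 early (SD, n = 4 and 3 days for each).

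**Figure D4:**
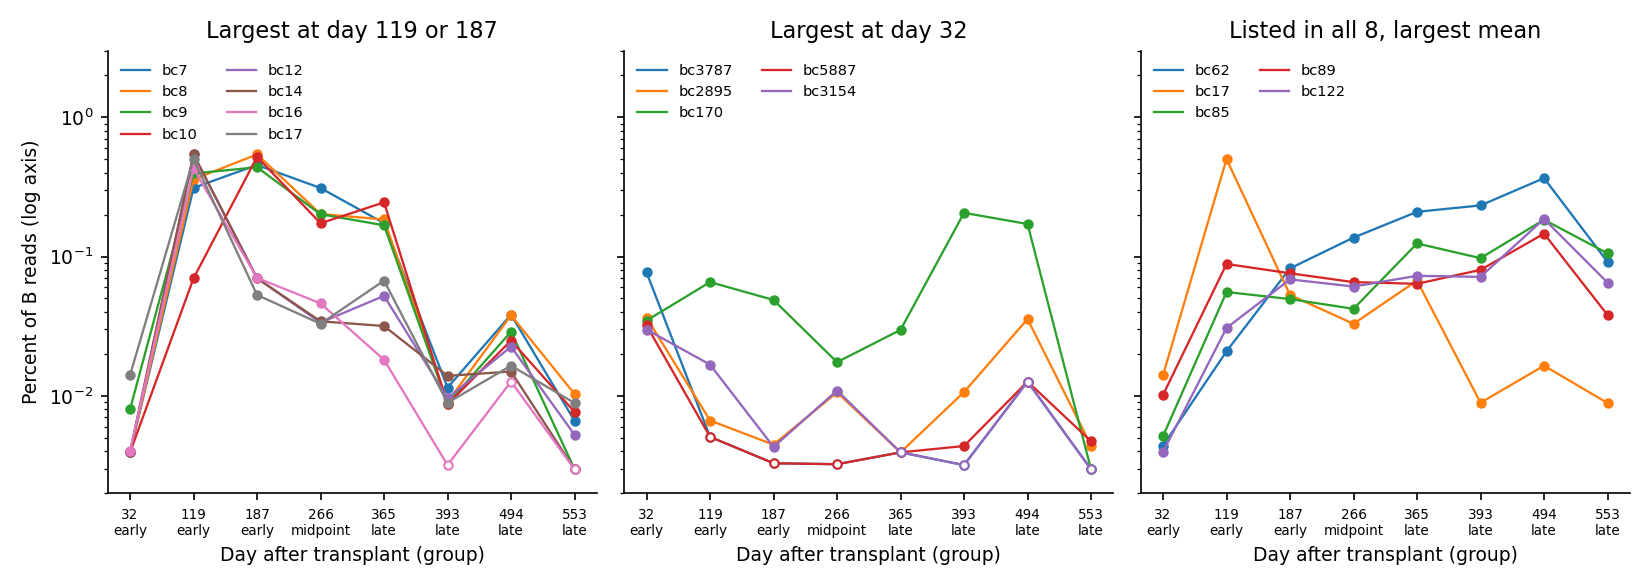
Percent of B reads (log axis) of named barcodes in the 8 B libraries (horizontal axis, days evenly spaced). Open circles are listed zeros, drawn at the limit of 100 reads. The barcodes that were largest at day 119 or 187, bc1 of the leading group not drawn, stand at 0.0382% or below from day 393 on, and bc62 and bc85 stand above their early levels in every late library.

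At day 553 the B library was narrower than the other late libraries by measures that weight barcodes by their reads. The number of barcodes listed was not outside their range, at 7935 against 8288, 11624 and 3296. The effective number of barcodes (e raised to the Shannon entropy, so that equal shares return the plain count) was 700, against 4643, 7370 and 2405 in the other late libraries in order of day. The largest barcodes that together made up 50% of reads numbered 279 at day 553, against 1441, 2043 and 790. The 10 largest barcodes held 41.7% of reads at day 553, against 8.47%, 4.30% and 6.41%. The inverse Simpson index, which weights large barcodes more, was 34.8 at day 553, against 860, 2612 and 1103.

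The leading group was at its highest B share at day 553. bc1 held 7.73% of reads at day 553, and was at 1.29%, 0.580% and 1.05% at days 365, 393 and 494. Early it was listed at 0, 0.0356% and 0.1001%, with 1.71% at the midpoint. The other 5 held 6.23% to 7.04% at day 553 and at most 1.54% in the other late libraries. Together the 6 held 41.4% at day 553 (exact 95% interval 41.3% to 41.4%, counting error only). The same barcodes held 48.9% of T, 99.8% of Gr and 99.8% of Mono reads at day 553. At day 494 they held 5.29% of B, 3.98% of T, 94.1% of Gr and 99.9% of Mono reads. Whether cells of other labels had a part in the B value was not tested.

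With the leading group left out, the effective number of day 553 lay within the range of the other late libraries at the deposited depth. Its 10 largest remaining barcodes held less than theirs, while its 100 largest held a share within their range. The effective number was then 6321 at day 553, against 5907, 8132 and 2703 in the others. The 100 largest remaining barcodes held 7.19% of the remaining reads, against 9.03%, 7.09% and 12.1%. The 10 largest remaining held 1.21%, against 2.29%, 1.54% and 2.35%. The largest remaining barcode, bc85, held 0.105% of all reads, and the largest in the other late libraries held 0.595%, 0.288% and 0.365%. Depth was then matched by thinning the remaining reads of each late library to 747782 and setting counts of 100 or fewer to 0. The effective number was 1936 at day 553, against 1739, 1560 and 2703. The order of the steps matters: with all reads thinned to 789584 first and the leading group removed afterwards, it was 843 at day 553, below the 1695, 1596 and 2703 of the other late libraries. At the midpoint the effective number was 4573 with all barcodes and 6880 without the leading group.

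**Figure D5:**
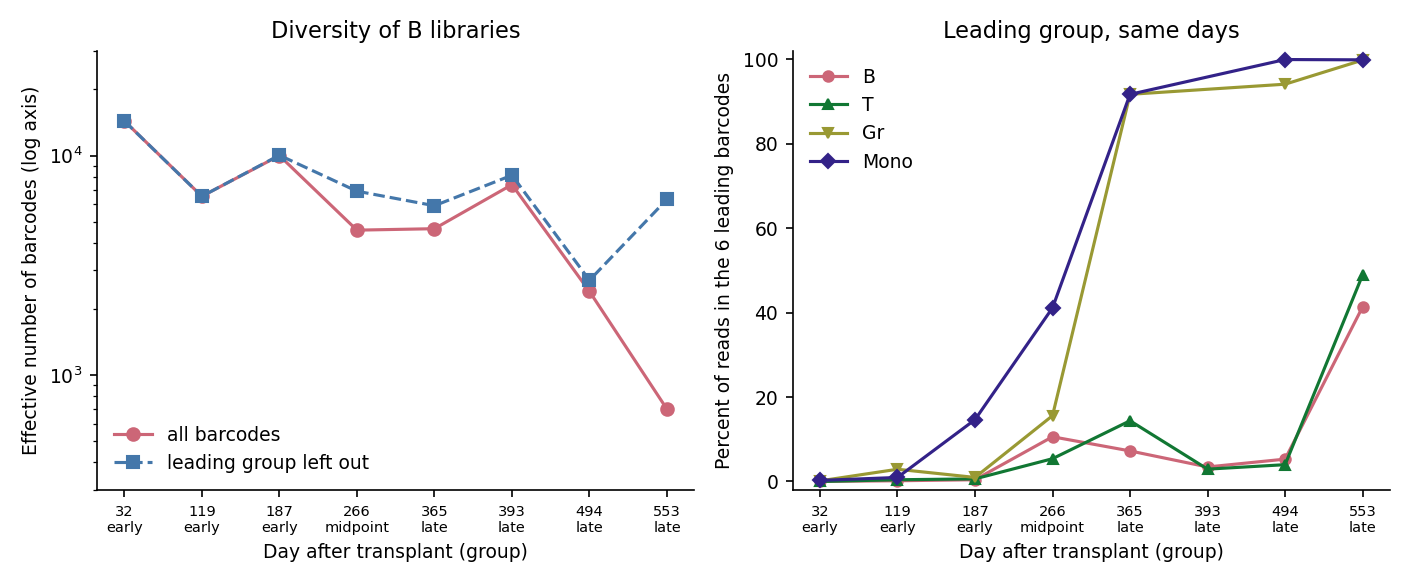
Left, effective number of barcodes in each B library (log axis) with all barcodes (circles) and with the leading group left out (squares). Right, percent of reads in the 6 leading barcodes in B, T, Gr and Mono of the same days, with no Gr or Mono library at day 393. At day 553 the circle stands at 700 and the square at 6321, and the leading group at 41.4% of B reads.

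Late and early libraries were compared on 6 single measures by a two-sided exact permutation test of the difference in means. With 4 against 3 libraries there are 35 arrangements, and the smallest p they allow is 0.0571, so none could pass 0.05. The p-values describe the order of these libraries and not a population of animals. The leading group held 14.3% ± 18.1 of reads in the late libraries and 0.2004% ± 0.2016 in the early ones (SD, n = 4 and 3 days, exact permutation p = 0.0571, adjusted p = 0.114). The 10 largest barcodes held 15.2% ± 17.7 late and 2.25% ± 1.80 early, and the 100 largest 21.7% ± 16.0 late and 6.06% ± 3.43 early, each with exact permutation p = 0.0571 and adjusted p = 0.114. All 4 late libraries stood above all 3 early ones in these measures. The nRBC libraries that set the leading group were all of the midpoint or later, so its higher late share was favoured by the choice. The size rested on day 553. Without it the differences were 5.12, 4.14 and 7.80 percentage points, against 14.1, 13.0 and 15.7 with it.

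The higher share of the 10 largest turned round without the leading group. With those 6 barcodes removed, the late minus early difference was −0.398 points (exact permutation p = 0.629). The 100 largest then held 2.85 points more (exact permutation p = 0.286).

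For the effective number, the count of barcodes of at least 0.02% and sharing with T the groups overlap. The effective number was 3779 ± 2887 late and 10297 ± 3935 early (exact permutation p = 0.114, adjusted p = 0.137, n = 4 and 3 days). Other measures of diversity did not overlap with all barcodes counted. The inverse Simpson index was 860, 2612, 1103 and 34.8 late and 12750, 3053 and 4532 early (exact permutation p = 0.0571, unadjusted). Without the leading group the late values were 3444, 5059, 2078 and 4661, within reach of the early 3053 and 4532. Those early values include the group, which held at most 0.415% of early reads. The barcodes that made up 50% of reads numbered 1441, 2043, 790 and 279 late and 5030, 2314 and 3088 early, which was not tested. Without the leading group they numbered 1673, 2185, 865 and 1918 late and 5029, 2315 and 3106 early, still without overlap. After thinning to 789584 reads, with counts of 100 or fewer set to 0, the difference in effective number was −16.0 (exact permutation p = 0.971). At day 32 the effective number was 770 after that step and 14375 before it. Barcodes of at least 0.02% numbered 1020 ± 630 late and 477 ± 359 early (exact permutation p = 0.286, adjusted p = 0.286), with a difference of 543, or 264 without day 494. B reads in barcodes also listed in T of the same day were 44.6% ± 11.8 late and 19.6% ± 19.7 early (exact permutation p = 0.114, adjusted p = 0.137). That difference of 25.0 points was 15.8 without day 32, when T listed 525 barcodes.

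No single barcode passed between late and early libraries by edgeR's quasi-likelihood test, with 0 of 1320 tested called (0%). 36 had an unadjusted p under 0.05, of which 35 were higher late, and the smallest adjusted p was 0.326. The 6 leading barcodes had log2 changes of 5.88 to 6.59, each with an adjusted p of 0.927. DESeq2 called 31 of the same barcodes (2.35%), 28 higher (2.12%) and 3 lower (0.227%), and gave no adjusted p for the 6 leading ones. Of the 28, 27 were listed at 0 in all 3 early libraries, and 17 of these were listed in all 4 late ones. Their late means were at least 3.10-fold to 9.07-fold higher, with each early 0 set to 100 reads. Of all 1320 tested, 29 were at 0 in all early libraries. Such barcodes can pass the filter of 0.02% only through late libraries, so their direction was fixed in advance. The highest bound was that of bc252, named after its values were seen, at 0.0245%, 0.0244%, 0.0721% and 0.0276% in the late libraries. Without day 187, edgeR called 100 of 1242 barcodes tested (8.05%), all higher late and all at 0 at days 32 and 119. All 100 thus passed the filter through late libraries alone, and 91 of them were listed at day 187.

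Every late library stood above every early one for 234 of the 1320 barcodes (17.7%), and below for 1 (0.0758%). The median log2 change over all 1320 was 1.17. 569 barcodes passed the filter through late libraries alone, and 27 through early libraries alone. Without day 494, which had 1857 barcodes of at least 0.02%, 890 barcodes were tested, and without day 32, which had 74, 1315 were. No direction over these barcodes is therefore read from the counts.

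Sharing with other cell types over all days was lowest at day 32. Barcodes listed in no library of another cell type held 8.39%, 13.2%, 3.38% and 8.78% of B reads in the late libraries. They held 44.8%, 14.7% and 19.4% in the early ones and 15.3% at the midpoint. Without the leading group they held 9.05%, 13.6%, 3.57% and 15.0% late and 44.8%, 14.7% and 19.5% early, so that day 553 stood above day 119 and the groups overlap. Barcodes listed on some day in T and also in Gr or Mono held 68.6%, 61.4%, 80.5% and 59.5% of the reads outside the leading group in the late libraries. They held 21.9%, 57.4% and 52.4% of such reads in the early ones and 55.7% at the midpoint. These last late values lie above the early ones, and day 494, with the highest limit of a listed 0, is the highest.

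Sharing with Gr and Mono of the same day differed with and without the leading group. Over all B reads, barcodes listed in Gr of the same day held 10.5%, 5.84% and 41.5% at days 365, 494 and 553, and 22.2%, 25.9% and 37.3% at days 32, 119 and 187. For Mono the values were 14.4%, 5.64% and 41.4% late and 23.2%, 15.8% and 28.5% early. Day 553 was the highest of these in both, and the groups overlap. Outside the leading group the late values were all lower than the early ones. There, barcodes listed in Gr of the same day held 3.53%, 0.578% and 0.219% of the B reads outside the leading group at days 365, 494 and 553. They held 22.1%, 25.8% and 37.0% at days 32, 119 and 187. Gr itself listed 69, 22 and 18 barcodes on those late days, against 8820, 2013 and 4729 on the early ones. With Mono the values were 7.72%, 0.362% and 0.143% late and 23.2%, 15.6% and 28.2% early. With T they were 42.7%, 43.0%, 25.0% and 27.6% in the 4 late libraries, and 1.28%, 40.3% and 16.8% in the early ones.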

How the data were processed

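The labels' protocols give 200 ng of DNA and 28 cycles for the barcode PCR. What the authors deposited is a single table of read counts for 44423 sequences, each of 50 bases, in 38 libraries. No source used here names the program that counted barcodes, and counts as the unit follow from whole-number values. The limit of 100 reads is inferred from the smallest count above 0, which is 101. Without molecular identifiers, PCR reads are no independent molecules, so intervals cover counting error only.

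Shares are percent of the column sum, and B libraries were grouped by labelled day. Single barcodes were tested with edgeR 4.0.16 (quasi-likelihood, Benjamini-Hochberg) in R 4.3.3, scaled by column sums. A barcode was tested where 2 or more of the 7 late and early libraries had it at 0.02% or above. SE was obtained by dividing the log2 difference by the root of F. Days of 1 animal enter these p-values as if independent. Single values were tested with scipy 1.17.1, adjusted over 6 measures. Named barcodes were the 5 largest of each B library, the 5 largest by mean among those listed in all 8 besides the leading group, and, in each direction, the 5 called ones with the largest log2 change that held at least 0.05% in some library. The libraries, measures and lists were chosen with earlier results of these data known. The edgeR step was tested on simulated data. No barcode lay within 2 mismatches of one with at least 10 times its B reads. The labels name no batch. Alternatives were DESeq2 1.42.0, TMM, other filters and thresholds, thinning, and leaving out each library.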

Additional observations from a re-analysis of the deposited data

Results flagged for a closer look

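In a group of 4 late libraries, 13 of 37 measures or barcodes had 1 library set apart from the others by more than 0.829 of the group's range. Chance would mark about 1 in 20 groups, and members of the leading group move together, so these are not separate events. Day 553 was the high library for the share of the 10 largest barcodes (41.7%) and of the leading group (41.4%). It was also high for bc1 (7.73%), bc2 (6.95%), bc3 (7.01%), bc4 (7.04%), bc5 (6.23%) and bc6 (6.40%). Day 365 was the high library for bc8 (0.185%), bc10 (0.245%), bc16 (0.0182%) and bc17 (0.0672%). The other late values of bc16 were all listed zeros. Day 494 was the high library for bc122 (0.186%).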

How the results depend on the processing

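No paired analysis was possible because late and early libraries share no day. The late minus early difference turned round in 2 cases: the effective number over barcodes of at least 0.02% only (301), where 74 barcodes of day 32 remain, and the share of the 10 largest without the leading group (−0.398 points). No measure had an adjusted p under 0.05 in the alternatives tried (0.0714 to 0.971); with day 266 added to the late group, the unadjusted p was 0.0357 for the leading group, the 10 largest and the 100 largest. Leaving out 1 library gave differences of −8404 to −4478 in effective number, 264 to 771 barcodes of at least 0.02%, 4.14 to 16.6 points for the 10 largest, 7.80 to 19.6 for the 100 largest, 5.12 to 17.8 for the leading group and 15.8 to 35.4 for sharing with T. Called barcodes numbered 100 of 1242 tested (8.05%) without day 187 and 0 without any other library (range 0 to 100). With no filter they numbered 7 of 34444 (0.0203%), and by DESeq2 31 of 1320 (2.35%). Of day 32 barcodes, 6.02% later reached 0.02%, against 50.6% listed again. The day 553 share in barcodes seen earlier, 93.5%, was 99.1% at a minimum of 0.02% and 89.0% without the leading group. The effective number at day 553 over the mean of the 3 other late libraries, 0.146, was 1.13 without the leading group, 1.32 by the inverse Simpson index without it and 0.968 after removing it and then matching depth. Thinning first and removing it afterwards gave 0.422. The ratio of barcodes of at least 0.02% without the group was 0.771. All of these ratios but 0.146 and 1.13, and the value of 89.0%, were chosen after seeing the data. Depth limits barcode counts most at day 494.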

Other observations

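Over all B barcodes, the commonest case was to be listed on a single day, yet such barcodes held few of the late reads. 18638 of the 36063 B barcodes (51.7%) were listed in 1 B library only. They held 46.3% of reads at day 32 and 11.6% at day 119. They held 5.37%, 9.81%, 1.04% and 6.45% in the late libraries in order of day. Barcodes listed in at least 5 of the 8 libraries, with the leading group left out, held 64.2%, 55.3%, 83.4% and 55.7% late. In the early libraries these barcodes held 13.3%, 49.0% and 45.3%. A barcode can be listed in 5 libraries without an early library, but not without a late library. The higher late values are thus partly set by this choice, and no test was made. The highest value, 83.4%, was that of day 494, which had the highest limit of a listed 0.

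The variable part had the same median length and the same GC quartiles in day 32 barcodes that came back late and in those that did not come back. The median length was 27 bases in both classes. Median GC content was 55.6% (quartiles 48.1% and 59.3%) in the 5227 barcodes listed late, and 53.6% (48.1% and 59.3%) in the 7623 not listed again in B, counting barcodes with the adapter found. No test was made.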
